A study of Homo sapiens with 12 samples.

Results

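In IGROV-1, a human ovarian carcinoma cell line, 1884 of 19775 measured genes (9.53%) separated both CXCR4 knockdown clones from both control lines on every array. A gene belonged to this set when its log2 values on all 6 arrays of the knockdown side lay outside the range of its values on all 6 arrays of the control side. Of these genes, 692 were higher in the knockdown lines and 1192 were lower, which is 3.5% and 6.03% of all genes. The rule read the same arrays that give each gene's difference, so the separation and the size of the members' differences are a description. Where a limma p or a count of genes passing is given, it comes from the fit over all genes and is no separate support for a member.

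The study measured 4 versions of the line on 12 arrays, 3 arrays each. Parental is IGROV with no plasmid named. Mock carries a plasmid with a scrambled RNA sequence and is a pool of clones. The lines shCXCR4 (I) and shCXCR4 (II) are individual clones carrying a plasmid with a short hairpin RNA against CXCR4. The study used 2 hairpin sequences, and the labels do not state which clone holds which. All transfected lines were made with Lipofectamine 2000 and kept in puromycin at 4 µg/ml over 30 days, beginning 48 hours after transfection. Arrays were hybridised from 6 µg of total RNA. The comparison set the equal-weight mean of both clones against the equal-weight mean of Mock and Parental. The knockdown and the origin from 1 cell change together here and cannot be told apart, and no plasmid or puromycin is named for Parental. The labels do not say that the 3 arrays of a line come from separate cultures, so p-values over arrays reflect how far these particular arrays scatter, possibly for technical reasons alone.

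CXCR4 is a G protein-coupled receptor for the chemokine CXCL12. Binding of the ligand signals through inhibitory G proteins to calcium, phosphoinositide 3-kinase and MAP kinases, and arrestins and G protein-coupled receptor kinases end the signal. In ovarian cancer the pair is known for directing cell migration and peritoneal spread.

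The line's markers were checked first. PAX8, a transcription factor of Müllerian epithelium, lay at mean log2 values of 10.13 in the controls and 10.15 in the knockdown lines, and the keratin KRT18 at 11.10 and 11.13. MUC16, a mucin antigen of ovarian carcinomas, was near the bottom of the scale, with 3.07 in the controls and 2.88 in the knockdown lines. Of the 10 epithelial and Müllerian markers, 3 passed the limma test described below as lower, CDH1 (-0.64), KRT7 (-0.41) and MSLN (-0.78), and 1 as higher, EPCAM (0.22). MSLN, which encodes mesothelin, was also in the separating set. The summed level of the 10 epithelial and Müllerian markers ran from 13.2 to 13.5 on the log2 scale over the knockdown arrays and from 13.2 to 13.4 over the control arrays. None of the 14 measured defining markers of fibroblasts, endothelial cells and leukocytes belonged to the separating set. Among these 14, COL1A1 (0.17), PECAM1 (0.32) and ITGAM (0.30) passed as higher and CDH5 (-0.54) as lower. The summed fibroblast markers ran from 7.6 to 7.91 over the knockdown arrays and from 7.54 to 7.68 over the control arrays. The endothelial sum ran from 7.26 to 7.45 against 7.07 to 7.41. The leukocyte sum ran from 6.28 to 6.44 against 5.96 to 6.28. The leukocyte marker PTPRC lay at 3.07 in the controls and 3.09 in the knockdown lines. Array medians over all probe sets lay between 4.25 and 4.39, and correlations between arrays of the same line between 0.996 and 0.998.

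CXCR4 was lower on all 3 of its probe sets. On the brightest, the log2 values were 7.06, 7.10 and 7.11 in clone I and 6.39, 6.73 and 6.75 in clone II, against 8.51, 8.60 and 8.64 in Mock and 8.42, 8.28 and 8.30 in Parental. Every knockdown array lay at least 1.17 log2 units below the lowest control array. The difference was -1.60 (SE 0.06, 12 arrays), which leaves 33% of the control level, with a limma adjusted p of 6.89e-10. The other probe sets left 46.6% and 50.9%, again without overlap. Clone II lay lower than clone I by 0.47 log2 units on the brightest probe set (limma adjusted p 0.00517). When each line was reduced to 1 mean, so that 2 knockdown lines faced 2 control lines, the adjusted p for CXCR4 was 0.0593.

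The ligand and the other genes of the pathway differed by much less. CXCL12 had a difference of 0.09 (SE 0.06, limma adjusted p 0.292), and ACKR3, the atypical receptor that scavenges the same ligand, 0.12 (adjusted p 0.131). The line means of ACKR3 lay between 2.96 and 3.12 on the log2 scale. Of 17 measured genes of the axis, 4 passed the test as lower and 1 as higher, beside 15.2% and 13.3% of all genes; a gene passed when its limma p, adjusted over all 19775 genes by Benjamini-Hochberg, was under 0.05. Apart from CXCR4, the 4 were GNAI1, an inhibitory G protein subunit (-0.22), RGS2, a regulator of G protein signalling (-0.28), and ARRB1, an arrestin (-0.26). The higher gene was CD74, a receptor for the cytokine MIF (0.19). GNAI1 separated the sides by 0.01 log2 units.

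Most of the separating genes differed by little. Their median absolute difference was 0.329 log2 units, a 1.26-fold change, against 0.103 over all genes. The distance between the nearest arrays of the sides, meaning the gap between the lowest array of the higher side and the highest array of the lower side, had a median of 0.0739. It reached 0.25 in 269 genes (92 higher, 177 lower), 0.5 in 79 and 1 in 25, and of these 25 genes 6 were higher and 19 lower. Over all genes, 2623 passed as higher and 2999 as lower, so 3756 genes passed the test while their arrays overlapped. Of the 1884 separating genes, 18 did not pass. A difference of at least 2-fold that also passed was seen in 100 genes, 24 higher and 76 lower, and 90 of them belonged to the set. The split by direction moved with the scaling: 36.7% of the separating genes and 46.7% of the passing genes were higher as deposited, 51.9% and 50.8% after quantile normalization, and 23.7% and 32.2% once every array was shifted to a common median. It also moved with level. Among 8348 genes with a mean log2 value of at least 6, 27.7% of the separating and 31.1% of the passing genes were higher. There 1352 genes passed as higher and 3002 as lower. A mean under 6 was seen in 43.1% of the higher and 13.8% of the lower separating genes. Shares of all genes set beside the gene lists below are not matched for level.

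Genes at the edge of the rule had small distances but not always small differences. LRRK1 and GPR173 were just inside on the higher side, each with a distance of 0.00025 and with differences of 0.18 and 0.41. ADRA2B and C14orf39 were just outside, with differences of 0.36 and 0.17. On the lower side, RBM48 (-0.41) and NEK4 (-0.12) were just inside, and GOLGA4 (-0.26) and PHF12 (-0.18) just outside.

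**Figure D1:**
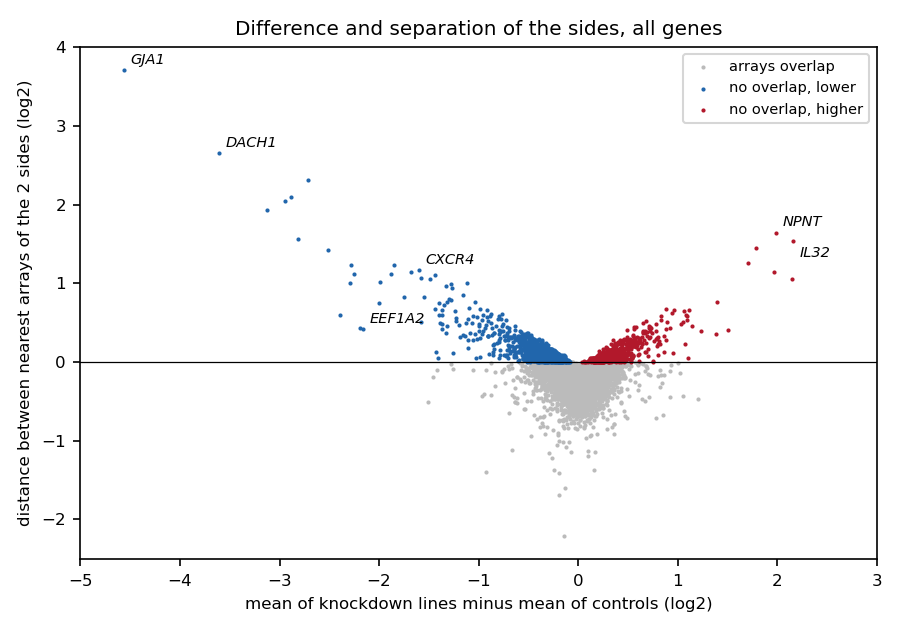
Each point is 1 of 19775 genes. The x axis is the mean of the knockdown lines minus the mean of the controls (log2) and the y axis the distance between the nearest arrays of the sides (log2), with points above 0 having no overlap. Lower genes (blue) reach a distance of 3.71 with GJA1, and higher genes (red) 1.64 with NPNT.

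The widest separations were on the lower side. GJA1, a connexin that forms gap junction channels between cells, ran from 2.81 through a median of 3.06 to 3.37 in the knockdown lines and from 7.08 through 7.71 to 8.14 in the controls. Its difference was -4.56 (SE 0.06), or 23.7-fold, and its nearest arrays were 3.71 log2 units apart. It stood alone in its family: of 13 measured connexins and pannexins, GJA1 was the only one that passed as lower and GJB1 (0.15) the only one that passed as higher. That is 7.69% in each direction, under the 15.2% and 13.3% of all genes. With levels near 3 in both clones, GJA1 was close to the bottom of the array's range, where differences are compressed.

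DACH1, a transcriptional repressor of the retinal determination network, ran from 2.45 through 2.65 to 2.82 in the knockdown lines and from 5.48 through 6.26 to 7.04 in the controls (difference -3.61, SE 0.06). The control values fell into 2 levels, 6.99 to 7.04 in Mock and 5.48 to 5.53 in Parental. Its other probe sets gave -2.81 and -1.91. EYA4, a phosphatase and coactivator of the same network, ran from 2.49 to 3.13 in the knockdown lines and from 4.14 to 5.60 in the controls, and Mock was again the higher control, by 1.13 log2 units. Of 11 measured genes of the network these were the only members of the set.

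BASP1, a membrane-bound signalling protein that also acts as a corepressor of WT1, held 3.56 to 3.76 in the knockdown lines and 6.07 to 6.84 in the controls. The clones differed by 0.01 on this gene, and the difference between the sides was -2.71 (SE 0.07). A second, dimmer probe set of BASP1 showed none of it, with 0.01. NCALD, a neuronal calcium sensor, held 3.98 to 4.91 against 7.01 to 7.58 (-2.88), and its dim second probe set gave -0.19. CRISPLD1, a secreted cysteine-rich protein, held 1.79 to 2.22 against 4.26 to 5.64 (-2.94).

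KCTD12, an auxiliary subunit of GABA-B receptors, gave 4.09, 4.10 and 4.16 in clone I, 2.69, 2.97 and 2.74 in clone II, 6.29, 6.10 and 6.25 in Mock and 6.89, 7.06 and 6.91 in Parental. All 4 lines had a level of their own. THSD7A, a membrane protein with thrombospondin repeats, had a similar order of the clones, 4.75 to 4.96 in clone I and 3.42 to 3.90 in clone II, against 6.52 to 7.51 in the controls. Its 3 other probe sets gave -2.83, -2.11 and -0.72. MGAT4C, an N-acetylglucosaminyltransferase, lay at 2.05 to 2.30 in the knockdown lines, 3.72 to 3.86 in Mock and 5.19 to 5.75 in Parental.

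IL1R1, the signalling receptor for interleukin 1, ran from 4.97 through 5.25 to 5.68 in the knockdown lines and from 6.91 through 7.09 to 7.36 in the controls (-1.85, SE 0.06). FLRT3, a leucine-rich adhesion protein that binds unc5 receptors, held 3.56 to 4.29 against 5.43 to 5.75 (-1.68), and its second probe set differed from the first by 0.02.

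The higher side had smaller distances. NPNT, which encodes nephronectin, a matrix ligand of integrins, gave 8.50, 8.48 and 8.43 in clone I and 8.30, 8.31 and 8.37 in clone II, against 6.61, 6.45 and 6.65 in Mock and 6.23, 6.30 and 6.18 in Parental. The difference was 1.99 (SE 0.05), or 3.98-fold. IL32, a proinflammatory cytokine, ran from 6.94 through 7.13 to 7.29 in the knockdown lines and from 4.40 through 5.03 to 5.40 in the controls (2.16, SE 0.08). The long non-coding RNA LINC00518 held 4.77 to 4.99 against 2.65 to 3.32 (1.79). Both clones had nearly the same level of these 3 genes, and no difference between the clones passed the test for them.

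ALDH1A3, which makes retinoic acid from retinaldehyde, held 6.40 to 6.56 in the knockdown lines and 4.25 to 5.14 in the controls (1.71, SE 0.08). Its relative ALDH1A1 went the other way, 8.68 to 9.09 in the knockdown lines against 9.58 to 9.65 in Mock and 10.88 to 10.92 in Parental (-1.38, SE 0.05). The retinoic acid carrier CRABP2 was higher, by 0.80. LGALS3, the lectin galectin 3, gave 10.74, 10.82 and 10.75 in clone I but 9.80, 9.87 and 10.14 in clone II, against 8.09 to 8.66 in the controls (1.97). UNC93A held 6.85 to 7.05 in clone I, 6.14 to 6.17 in clone II, 3.52 to 4.23 in Mock and 4.71 to 5.08 in Parental (2.15).

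ITGA5, the alpha subunit of the fibronectin receptor, ran from 7.96 through 8.09 to 8.26 in the knockdown lines and from 6.90 through 7.17 to 7.30 in the controls (0.96, SE 0.06). It was the only one of 19 measured integrins in the set. Of the 19, 5 rose (26.3%) and 4 fell (21.1%), beside 13.3% and 15.2% of all genes. Together with ITGA5, the integrins ITGA2 (0.30), ITGA11 (0.18), ITGA10 (0.16) and ITGB8 (0.16) passed as higher. Those passing as lower were ITGA6 (-0.33), ITGAV (-0.22), ITGB1 (-0.20) and ITGB5 (-0.19), and all but ITGA5 had overlapping arrays. GEM, a small GTPase that restrains calcium channels, held 5.37 to 5.65 against 3.97 to 4.71 (1.12). CRACR2B, a regulator of store-operated calcium entry, held 7.19 to 7.43 against 5.86 to 6.54 (1.07). LIMS2, a LIM-domain protein of focal adhesions, held 5.46 to 5.76 against 4.55 to 4.83 (0.94), and TTC39A 6.02 to 6.27 against 5.13 to 5.34 (0.88).

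**Figure D2:**
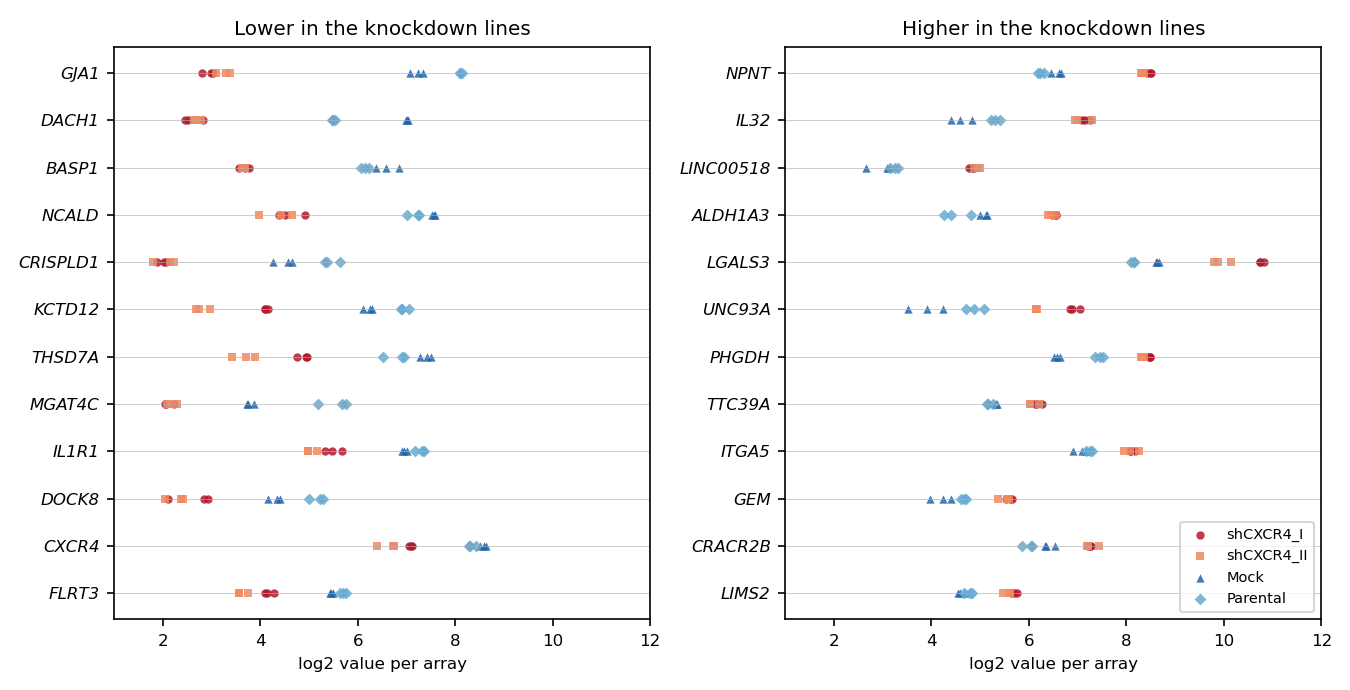
Log2 value on each of the 12 arrays (x axis) for the 12 lower (left) and 12 higher (right) genes with the widest distance between the sides (rows); colour and marker give the line. In no row do red or orange points reach the blue ones, while KCTD12, THSD7A, LGALS3 and UNC93A show separate levels for the clones and DACH1, MGAT4C and PHGDH separate levels for the controls.

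The spread within each side is described by the contrasts between the clones and between the controls. The rule reads the range of each side, so it also bears on this spread, and the members' shares are a description. Over all genes, 1413 (7.15%) differed between the clones and 2968 (15%) between Mock and Parental by the limma test. Among the separating genes these shares were 12.2% (229 genes) and 19% (358 genes), and 1370 genes (72.7%) passed neither, against 80.6% of all genes. The largest clone difference among them was in SCEL, a protein of the cornified envelope, at 5.12 to 5.29 in clone I and 3.32 to 3.79 in clone II, against 5.34 to 6.22 in the controls. Clone I there lay just under the controls and clone II far below. FAM110C had the same order, with a clone difference of 1.31.

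The largest control difference was in EEF1A2, a translation elongation factor. It held 7.87 to 8.11 in Mock, 5.22 to 5.49 in Parental and 3.92 to 4.81 in the knockdown lines. PDGFC, a platelet-derived growth factor, had the reverse order of the controls, with 6.27 to 6.37 in Mock, 8.58 to 8.74 in Parental and 4.80 to 5.84 in the knockdown lines. TOX3, an HMG-box transcription factor, held 8.17 to 8.26 in Mock, 6.13 to 6.31 in Parental and 4.77 to 5.13 in the knockdown lines. For such genes the size of the difference depends on which control is used. LRATD1 held 5.53 to 5.87 in Mock, 7.50 to 7.79 in Parental and 3.60 to 4.93 in the knockdown lines, and 1 of its other 6 probe sets had a difference of the opposite sign (0.07).

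Other probe sets on the array gave a second reading of the same RNA. Of the separating genes, 1310 had 2892 other probe sets. Of these probe sets, 76.8% differed in the same direction, against 63% for the other probe sets of the remaining genes, and 602 (20.8%) separated the sides in that direction, with 15 separating them the opposite way. Over all genes, 1316 of 21322 other probe sets (6.17%) separated the sides in either direction. Among other probe sets with a mean log2 value of at least 6, the same direction was seen in 93.6% for the separating genes and 76.1% for the other genes. COL6A1, a collagen chain, is a case where the chosen probe set stood apart: it gave -0.79, and its 7 others ran from -0.26 to 0.29.

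The list with the largest share of genes passing was mitosis. Of 30 measured genes for the spindle, kinetochore and mitotic entry, 28 fell and none rose, and 13 separated the sides, all lower, beside 15.2% of all genes falling and 6.03% separating as lower. With the line as a random block in limma 14 fell, and with 1 mean per line none. The list's median difference was -0.38 against 0.02 over all genes. KIF11, the kinesin that pushes spindle poles apart, ran from 7.79 through 7.84 to 8.09 in the knockdown lines and from 8.41 through 8.48 to 8.54 in the controls. CENPE, a kinetochore kinesin, ran from 6.58 through 6.80 to 7.04 against 7.28 through 7.35 to 7.62, and KIF14, a kinesin of cytokinesis, from 7.77 through 7.96 to 8.17 against 8.39 through 8.51 to 8.77. Their differences were -0.57, -0.59 and -0.57 (SE 0.05 each). NUSAP1 (-0.54), KIF20A (-0.50), BUB1 (-0.48), PRC1 (-0.46), TPX2 (-0.45) and AURKA (-0.40) were among the other members. MAD2L1 (-0.06) and CENPA (-0.13) did not pass.

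This group was uneven between the clones. In RNA from whole cultures, fewer dividing cells and less RNA per cell cannot be told apart. Clone I minus clone II had a median of -0.34 log2 units over the list, and 24 of 30 genes passed the clone contrast, while 2 passed the control contrast. With clone II alone against the controls, 14 genes of the list fell, beside 2618 of all 19775 genes. Genes of DNA replication and nucleotide synthesis followed the same order. Of 29 measured, 21 fell and 7 separated the sides, all lower, beside 15.2% and 6.03% of all genes. With clone II alone 4 of 29 fell, about the share of all genes that fell in that comparison. RRM1, a subunit of ribonucleotide reductase, differed by -0.36, the helicase subunit MCM5 by -0.36 and the cyclin CCNE2 by -0.39. With Parental alone as control, 13 of 29 fell, beside 2026 of all 19775 genes. The random block of lines left 4 of 29, and 1 mean per line none.

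Promoters of the mitosis list are shown because its members moved together. Many genes of late cell cycle carry a cell cycle genes homology region near the start, read by the DREAM and MuvB complexes, often beside a CCAAT box. Windows from 250 bases before to 30 bases after the start were taken from RefSeq (GRCh38.p14), and 25 of the 30 genes had one. The letters TTTGAA, the core of that element, were searched on both strands. They occurred in 16 of 25 mitosis promoters (64%), in 1 of 26 replication promoters and in 11.5% of 15382 promoters of measured genes. CCAAT on either strand occurred in 76% of the mitosis promoters and 35.5% of all, but also in 61.5% of the replication promoters, 62.5% of those of the serine and ATF4 list and 68.8% of those of the cholesterol and fatty acid list. A match is a description of these letters only. The windows of KIF11 at chr10:92592880-92593159 (+ strand), KIF14 at chr1:200620722-200621001 (- strand) and PRC1 at chr15:90994506-90994785 (- strand), which codes for a spindle midzone protein, read as follows 5′ to 3′, with TTTGAA or its reverse complement in capitals.
KIF11: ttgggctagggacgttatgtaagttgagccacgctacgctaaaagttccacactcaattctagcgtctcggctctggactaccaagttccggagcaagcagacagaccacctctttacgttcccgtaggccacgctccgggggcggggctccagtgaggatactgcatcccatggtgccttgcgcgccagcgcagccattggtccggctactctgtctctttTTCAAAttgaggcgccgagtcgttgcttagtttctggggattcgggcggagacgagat
KIF14: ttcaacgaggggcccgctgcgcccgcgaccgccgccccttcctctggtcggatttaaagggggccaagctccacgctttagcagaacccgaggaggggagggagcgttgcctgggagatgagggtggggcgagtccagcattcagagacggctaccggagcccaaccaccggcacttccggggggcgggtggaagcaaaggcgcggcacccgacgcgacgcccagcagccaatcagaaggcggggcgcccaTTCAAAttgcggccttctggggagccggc
PRC1: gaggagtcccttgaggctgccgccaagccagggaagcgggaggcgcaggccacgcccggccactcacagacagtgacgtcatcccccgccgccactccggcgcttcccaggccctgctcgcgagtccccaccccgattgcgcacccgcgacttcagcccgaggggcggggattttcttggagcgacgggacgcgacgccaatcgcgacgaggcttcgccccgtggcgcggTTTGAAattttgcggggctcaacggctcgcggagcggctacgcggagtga

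In KIF11 and PRC1 the match begins 28 and 20 bases before the start, and in KIF14 it lies just after it.

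Genes of serine synthesis and targets of ATF4, the transcription factor of the amino acid response, went up more often than down. Of 19 measured, 9 rose (13.3% of all genes did) and 1 fell. The sides were separated by 5, of which 4 were higher and 1 lower, beside 3.5% and 6.03% of all genes. With the line as a random block 4 passed as higher, and with 1 mean per line none. PHGDH, the first enzyme of serine synthesis, gave 8.49, 8.47 and 8.48 in clone I and 8.37, 8.33 and 8.30 in clone II, against 6.58, 6.52 and 6.63 in Mock and 7.53, 7.36 and 7.45 in Parental (difference 1.39, SE 0.04). ASNS, asparagine synthetase, ran from 9.31 through 9.57 to 9.73 in the knockdown lines and from 8.12 through 8.45 to 8.77 in the controls (1.09, SE 0.04). STC2, a stanniocalcin, differed by 0.52 and CHAC1, a glutathione-degrading enzyme, by 0.46. The exception was CEBPB, a bZIP partner of ATF4, at 9.76 to 10.06 against 10.36 to 10.46 (-0.54, SE 0.04). ATF4 itself rose by 0.15. Mock minus Parental had a median of -0.28 log2 units over this list. With Parental alone as control 4 of 19 rose, beside 1821 of all 19775 genes.

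The response element that ATF4 binds with C/EBP proteins has the letters TGATGNAAN. It was found on either strand in 3 of 16 promoters of this list (18.8%), those of ASNS, CHAC1 and ATF3, and in 2.52% of all promoters. The windows of ASNS at chr7:97872379-97872658 (- strand) and CHAC1 at chr15:40953221-40953500 (+ strand) are shown with the match in capitals, on the reverse strand in CHAC1.
ASNS: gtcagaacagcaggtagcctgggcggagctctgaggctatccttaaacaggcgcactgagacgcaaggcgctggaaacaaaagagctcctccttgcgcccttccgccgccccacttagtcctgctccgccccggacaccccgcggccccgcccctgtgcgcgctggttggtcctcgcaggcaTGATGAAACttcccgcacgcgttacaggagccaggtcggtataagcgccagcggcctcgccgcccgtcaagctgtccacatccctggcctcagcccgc
CHAC1: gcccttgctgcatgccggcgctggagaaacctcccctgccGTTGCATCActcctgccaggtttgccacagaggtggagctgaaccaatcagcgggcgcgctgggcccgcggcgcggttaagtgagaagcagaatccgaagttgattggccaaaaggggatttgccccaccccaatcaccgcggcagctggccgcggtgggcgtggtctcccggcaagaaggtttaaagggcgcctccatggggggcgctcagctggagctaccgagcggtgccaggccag

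The match in ASNS begins 68 bases and that in CHAC1 210 bases before the start.

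Cholesterol and fatty acid synthesis genes were lower. Of 18 measured, 14 fell, beside 15.2% of all genes, and none rose. The sides were separated by 7, all lower, beside 6.03% of all genes, and the list median was -0.31. INSIG1, the sterol sensor partner that retains SREBP in the endoplasmic reticulum, had the largest difference (-0.74, SE 0.06), and Mock minus Parental was -1.06 on it. ELOVL6, a fatty acid elongase, held 7.96 to 8.27 in the knockdown lines and 8.47 to 8.80 in the controls (-0.55). ACLY, which makes cytosolic acetyl-CoA, differed by -0.36, with SQLE (-0.35) and LSS (-0.35) of the sterol branch alongside. HMGCS1 fell by 0.61 with overlapping arrays. With clone II alone against the controls 14 genes of the list fell, beside 2618 of all 19775 genes, and 1 gene of the list differed between the clones. With the line as a random block 7 passed and with 1 mean per line none.

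**Figure D3:**
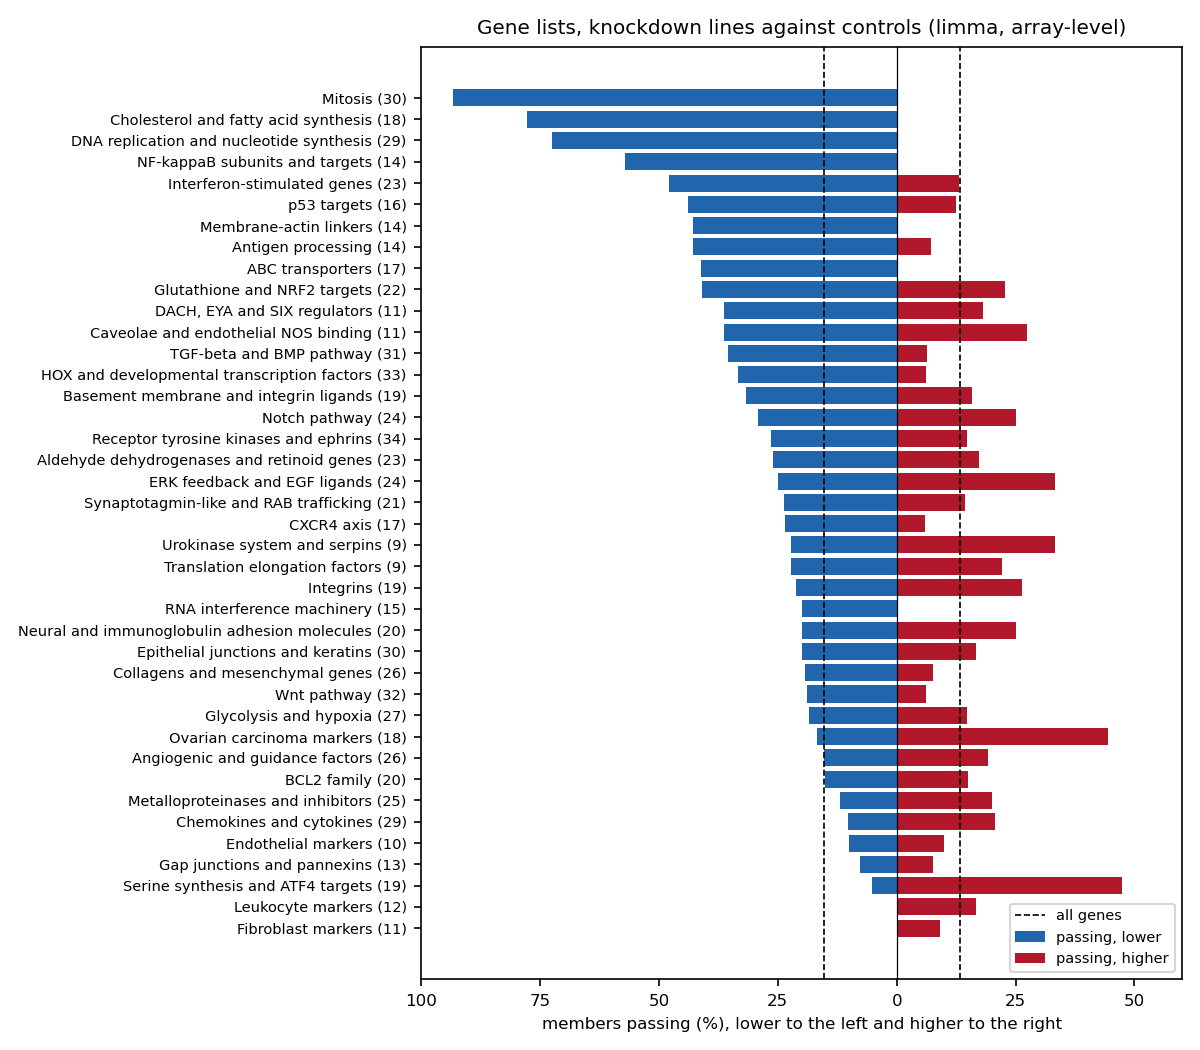
Bars give the percent of each list's measured genes (number in brackets) that passed the limma test as lower (left, blue) or higher (right, red); dashed lines mark all genes, 15.2% and 13.3%. The dashed lines are not matched for the level of the lists. Mitosis, cholesterol and fatty acid synthesis and DNA replication reach furthest to the left, serine synthesis and ATF4 targets furthest to the right.

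TGF-beta and BMP genes were more often lower than higher. Of 31 measured, 11 fell and 2 rose (BMP7, 0.18, and NOG, an inhibitor of BMPs, 0.63), beside 15.2% and 13.3% of all genes, and 8 separated the sides, all lower. In the fit with a random block of lines 7 fell, and with 1 mean per line none. Over all genes, 6.03% separated as lower. The list was not matched for level, and among genes with a mean log2 value of at least 6, 3002 of 8348 fell. By role the 8 separating genes of the list were the ligand subunit INHBB (-0.55) and the receptors TGFBR2 (-0.60) and BMPR2 (-0.38). The others were the transducers SMAD3 (-0.36) and SMAD1 (-0.20), the inhibitors SKIL (-1.09) and SMAD6 (-0.50), and ID4 (-0.38), a dominant-negative transcription factor. SKIL ran from 6.09 through 6.52 to 6.92 against 7.29 through 7.63 to 7.91. Both activators and inhibitors of the pathway were thus lower. Clone II lay below clone I for TGFBR2, by 0.68, and for SKIL, by 0.61.

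In the Wnt list, 6 of 32 fell (18.8%) and 2 rose (6.25%), shares near or under the 15.2% and 13.3% of all genes. The members were the transcription factors TCF7L1 (-1.88, SE 0.06) and TCF7L2 (-0.40), the receptors FZD1 (-1.37) and FZD2 (-0.66), and, on the higher side, the ligands WNT7B (0.17) and WNT11 (0.34). TCF7L1 held 4.73 to 5.21 against 6.32 to 7.33. In the Notch list 7 of 24 fell (29.2%) and 6 rose (25%), with the ligand JAG1 (-0.36), the DNA-binding partner RBPJ (-0.32) and DTX4 (-0.49) lower and NOTCH4 (0.27) and DTX1 (0.21) higher among the members. The RBPJ value comes from a probe set that may read related sequences, and its other probe sets gave -0.27 and 0.04.

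Of 34 receptor tyrosine kinases and ephrins, 9 fell (26.5%, against 15.2% of all genes) and 5 rose (14.7%, against 13.3%). The ERBB family of EGF receptor relatives split: ERBB4 held 5.80 to 6.17 against 6.97 to 7.66 (-1.29, SE 0.06) and ERBB2 differed by -0.23, whereas ERBB3 held 5.55 to 6.39 against 4.91 to 5.46 (0.80, SE 0.09). FGFR4 differed by -0.47. Of 24 genes of ERK feedback and EGF ligands, 8 rose (33.3%) and 6 fell (25%), beside 13.3% and 15.2% of all genes. In that list 10 genes differed between the clones and 14 between the controls. Its feedback inhibitors DUSP4, a phosphatase (-0.59), and SPRED1 (-0.37) separated the sides as lower. The early response genes FOS (1.06) and EGR1 (0.82) rose with overlapping arrays. Of 26 angiogenic and guidance factors, 5 rose (19.2%) and 4 fell (15.4%), against 13.3% and 15.2% of all genes. Among them SEMA3C held 7.16 to 8.09 against 8.76 to 9.57 (-1.44) and EPAS1, a hypoxia-inducible factor subunit, differed by -0.73. VEGFA fell by 0.36 with overlap and VEGFB separated the sides at 0.23.

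The listed NF-kappaB and interferon genes were more often lower than higher. Of the 14 measured genes in the list of NF-kappaB subunits and targets 8 fell, beside 15.2% of all genes, and none rose. Under a random block of lines 3 fell, and with 1 mean per line none. The members were the subunit NFKB2 (-0.36), the deubiquitinase CYLD (-0.42), which restrains the pathway, and TNFAIP2 (-0.39). Of 23 interferon-stimulated genes 11 fell (47.8%) and 3 rose (13%, about the 13.3% of all genes). The lines were uneven here: 10 of the 23 differed between the clones and 7 between the controls. Clone I minus clone II had a median of 0.15 log2 units over that list. IRF1 (-0.36) was the only member, and 6.03% of all genes separated as lower. IL6 ran from 3.91 through 3.93 to 4.27 against 4.65 through 4.77 to 4.86 (-0.77), low values on this scale. The neutrophil chemokines CXCL1 (0.85), CXCL3 (0.62) and CXCL8 (0.49) rose, with overlapping arrays. Neither IL6 nor these chemokines were counted in the NF-kappaB list, so its counts hold only for the genes listed there.

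Detoxification genes split by family. Of 22 glutathione and NRF2-target genes, 5 rose (22.7%) and 9 fell (40.9%), beside 13.3% and 15.2% of all genes. The 5 higher genes all separated the sides, namely GSTM1 (0.56), GSTM2 (0.57), GSTM3 (0.53) and GSTP1 (0.24), glutathione transferases, and GPX2 (0.70), a glutathione peroxidase. GSTM1 and GSTM2 are near-identical and were read by probe sets that may cross-hybridise, so they may be 1 signal. On the lower side were the aldo-keto reductases AKR1C2 (-0.54) and AKR1B10 (-0.50) and the malic enzyme ME1 (-0.47). Of 17 ABC transporters 7 fell (41.2%) and none rose, beside 15.2% and 13.3% of all genes. Neither the transporters nor the glutathione list was matched for level. Among genes with a mean log2 value of at least 6, 3002 of 8348 fell, a larger share than over all genes. ABCB1, the drug efflux pump P-glycoprotein, held at most 3.01 against at least 3.32 (-0.78), close to the bottom of the scale.

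Of 16 p53 targets 7 fell (43.8%) and 2 rose (12.5%), beside 15.2% and 13.3% of all genes. This list was not matched for level either. RRM2B (-0.74), TP53INP1 (-0.56), XPC (-0.43) and DDB2 (-0.25), genes of nucleotide supply and DNA repair among them, separated the sides. Adhesion genes went both ways. Of 19 basement membrane and integrin ligand genes, 3 rose (15.8%) and 6 fell (31.6%). There NID2 (-0.70) and COL4A2 (-0.27) separated the sides as lower and NPNT (1.99) as higher. Of 20 neural and immunoglobulin adhesion molecules, 5 rose (25%) and 4 fell (20%), with 2 separating the sides as higher and none as lower. The cadherin CDH2 (-0.70) was lower. Of 30 epithelial junction and keratin genes, 5 rose (16.7%) and 6 fell (20%), near the 13.3% and 15.2% of all genes. The claudins CLDN3 (0.43) and CLDN1 (0.34) and the protease ST14 (0.45) separated the sides as higher and the desmosomal cadherin DSC2 (-0.38) as lower. The cadherin CDH1 fell by 0.64 with overlapping arrays. CDH2 held 5.22 to 5.34 in the knockdown lines and 5.39 to 5.55 in Mock, but 6.30 to 6.73 in Parental. NRCAM, a neuronal adhesion molecule, held 9.09 to 9.31 in the knockdown lines, 8.70 to 8.73 in Parental and 6.92 to 7.01 in Mock (1.39). CAV1, the main protein of caveolae, held 5.47 to 5.73 against 6.28 to 7.42 (-1.22), with its partner CAVIN1 at -0.35. SYTL2, a RAB27 effector in vesicle docking, held 7.87 to 8.25 against 7.71 to 7.82 in Parental and 5.97 to 6.35 in Mock (1.11).

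Over the 40 lists, 362 of 802 measured genes passed the test at the level of arrays, 129 with the line as a random block and 5 with 1 mean per line. Those 5 were GJA1, BASP1, NPNT, IL32 and ITGA5. Over all genes 26 passed with 1 mean per line (6 higher, 20 lower), every one a member of the set, and 2745 had an unadjusted p under 0.05 in that limma fit. Beside genes already described, they included LIFR, the leukaemia inhibitory factor receptor (-1.03), STC1, a stanniocalcin (-1.12), HSPB8, a small heat shock protein (-1.06), PAPSS2, which makes the sulphate donor for sulphation (-1.33), and PRKD3, a protein kinase D (-1.44). With the line as a random block, 1422 genes passed. The 24 genes with the widest distances, chosen on the same arrays, all passed that fit, and 10 of them passed with 1 mean per line.

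The separating genes were unevenly placed on the genome. Chromosome X held 109 of the 692 higher members among 696 measured genes (15.7%, against 3.5% over all genes). It held 26 lower members (3.74%, under the 6.03% over all genes). Genes with a mean log2 value of at least 5 were laid out in RefSeq order (GRCh38.p14) and read in windows of 30 neighbours, a layout chosen after the values were seen. Of 349 windows in the genome, 4 held 7 or more higher members, all on X, with 20, 19, 14 and 13; the median window held 1. They lay side by side toward the end of the long arm, and the stretch from the first of them to the last gene in the order runs from COX7B to IL9R.

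The stretch was picked for its many higher members, so its shares, medians and passing counts are a description. Neighbouring genes read in the same 2 clones are not separate evidence. In that stretch of 147 genes, 88 (59.9%) separated the sides as higher, 2 as lower, and 135 had a difference above 0. Autosomal genes of the same level had 4.03% higher and 10.5% lower members. In the stretch 115 genes passed the limma test as higher, beside 13.3% of all genes. With the line as a random block 87 passed as higher, beside 480 over all genes. With 1 mean per line none did, beside 6 over all genes. The median difference of the stretch was 0.36 log2 units, a 1.29-fold level. It made up 12.7% of all higher members. Per array, the median of the 147 genes, each set against its mean over the lines, was 0.19 to 0.21 in clone I and 0.09 to 0.21 in clone II, against -0.20 to -0.18 in Parental and -0.16 to -0.14 in Mock. The medians of the clone and the control contrast there were 0.07 and 0.02.

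The genes of the stretch have varied roles. RNF113A, a splicing-associated ubiquitin ligase, held 8.77 to 8.79 in clone I and 8.58 to 8.64 in clone II against 7.92 to 8.06 in the controls (0.68, SE 0.04). FUNDC2, a mitochondrial outer membrane protein, held 10.14 to 10.30 against 9.60 to 9.71 (0.56). LAMP2, a lysosomal membrane protein, gave 10.25 to 10.27 in clone I, 9.64 to 9.82 in clone II and 8.93 to 9.22 in the controls (0.88). F8, coagulation factor VIII, differed by 0.78, ATG4A, an autophagy protease, by 0.65, MCTS1, a translation factor, by 0.65, EMD, the nuclear envelope protein emerin, by 0.72 and SSR4, a subunit of the translocon complex, by 0.49. KLHL13 and NAP1L3 were the 2 lower members of the stretch.

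At the opposite end of the chromosome more genes were lower than higher. In the first window of the short arm, PLCXD1 to PIR, 10 of 30 genes (33.3%) separated the sides as lower and 3 (10%) as higher. Autosomal genes of the same level had 10.5% lower and 4.03% higher members. The window's median was -0.18, and 9 genes had a difference above 0. Of the 349 windows in the genome, 30 held 7 or more lower members, with at most 12. STS, steroid sulphatase, gave 5.47 to 5.86 in the knockdown lines, 6.60 to 6.70 in Parental and 7.37 to 7.56 in Mock (-1.39, SE 0.06). CD99, an adhesion glycoprotein, held 9.23 to 9.43 against 10.04 to 10.19 (-0.76), AKAP17A, a splicing regulator, 7.56 to 7.65 against 8.24 to 8.47 (-0.79), and ZBED1 differed by -0.77. The 3 higher genes were neighbours toward the far end of the window, OFD1 (0.71), TRAPPC2 and RAB9A. Between both ends, 150 genes had 8 higher (5.33%) and 13 lower members (8.67%), near the autosomal shares, and a median of -0.01.

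The pattern was also read from other probe sets. Of 100 other probe sets of the stretch with a mean log2 value of at least 5, 94 were above 0 and 54 separated the sides as higher, none as lower; their median was 0.34. Of all 7764 other probe sets at that level, 208 separated the sides as higher and 749 as lower, with a median of -0.06. Of 24 such probe sets in the first window, 3 were above 0 and 8 separated the sides as lower, with 1 higher. In the stretch, 83 to 98 genes of those measured separated the sides as higher under most changes of gene values, level filter or scaling. The exceptions were 79 after the shift to a common array median and 64 of 115 without probe sets that may read several transcripts. With only 1 control or 1 clone 92 to 110 did, but there every gene that separated before must separate still. Over all genes, those settings gave 3342 to 4816 separating genes, against 1884. DNA copy number was not analysed here, and its part in the pattern was not tested.

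**Figure D4:**
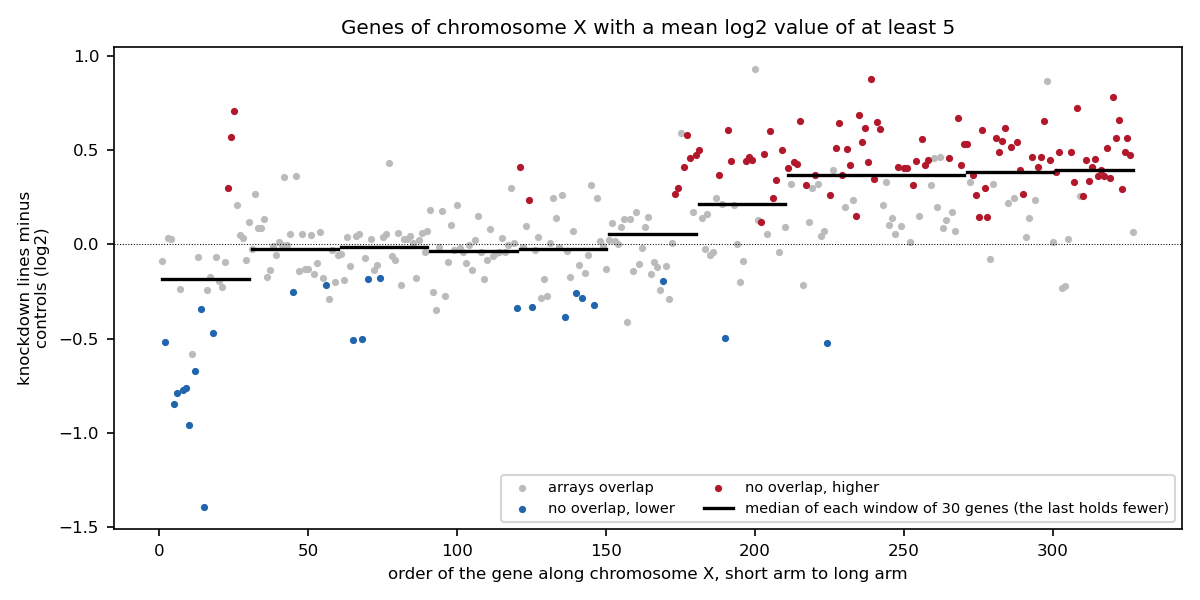
Each point is a gene of chromosome X with a mean log2 value of at least 5, in order from the short to the long arm (x axis), with the knockdown lines minus the controls in log2 units (y axis); black lines are medians of windows of 30 genes. Medians lie at -0.18 in the first window, between -0.03 and 0.06 in the middle and from 0.21 to 0.38 in the whole windows of the stretch at the end.

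On the autosomes no window held 7 or more higher members. The window with the most lower members was on chromosome 12, IPO8 to SLC38A1, with 12 of 30, among them DENND5B, a RAB exchange factor (-1.15), PRICKLE1, a planar polarity protein (-0.67), and KIF21A, a kinesin (-0.55). The window with the lowest median lay on chromosome 16, ADCY7 to CPNE2, with 11 lower members and a median of -0.26. Without chromosome X, 1749 genes separated the sides, 583 higher and 1166 lower.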

How the data were processed

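Expression in the 12 arrays was read from the authors' deposited log2 values, which were made with RMA in R 2.6.0 per the submitters' processing notes; no source used here gives the chip definition or background settings. RMA scales arrays to each other, so a shift of all genes together is not measured, and it compresses differences at low signal. The deposited arrays still differed somewhat in distribution, with interquartile ranges from 3.19 to 3.43. Of 54675 probe sets, 41097 carry 1 gene symbol, 1801 several and 11777 none in the platform annotation; each of 19775 genes was read from the brightest on average of its single-symbol probe sets. Sequences and gene order come from RefSeq (GRCh38.p14).

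A group-means model was fitted in R 4.3.3 by lmFit and eBayes of limma 3.58.1 (8 residual degrees of freedom, 5.19 prior), and p-values were adjusted by Benjamini-Hochberg over all genes. The script was checked on simulated data. The number of arrays limits the precision. Replicate numbers did not pair the arrays: same-numbered arrays had correlations of deviations from -0.0824 to 0.163, with 1 of 18 pairs over 0.1. Genes were named by rule: CXCR4, the 12 widest distances per direction, up to 3 separating members per list, genes at the edge, and those with the largest differences between clones, controls or probe sets; others in the text are list members, X genes or genes passing with 1 mean per line, chosen after their values were seen. The separating genes and the lists were chosen with earlier results of these data known. Alternatives changed the gene value, level filter, scaling, model, control, clone and array set.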

Additional observations from a re-analysis of the deposited data

Results flagged for a closer look

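The clones differed from each other in 26 of the 112 named genes (limma, adjusted over all genes), beside 7.15% of all genes; some of the named genes were chosen for a large difference between the clones. Values are clone I minus clone II in log2 units. Clone I was higher for SCEL (1.62), KCTD12 (1.32), FAM110C (1.31), THSD7A (1.21), LRATD1 (1.16), PDGFC (0.94), LGALS3 (0.83), UNC93A (0.77), FZD1 (0.69) and SEMA3C (0.65). It was also higher for MSLN (0.63), SKIL (0.61), FLRT3 (0.55), TP53INP1 (0.48), CXCR4 (0.47), ERBB3 (0.46), IL1R1 (0.45), ASNS (0.3) and NID2 (0.25). Clone II was higher for CENPE (-0.36), FGFR4 (-0.36), GJA1 (-0.31), MCM5 (-0.29), KIF14 (-0.26), GSTM2 (-0.26) and INHBB (-0.2). Clone II lay further from the controls in 16 of these genes and clone I in 10. CXCR4, KCTD12, THSD7A and SCEL are among the former. GJA1, LGALS3, UNC93A, ASNS and the cell cycle genes CENPE, KIF14 and MCM5 are among the latter. With 1 clone at each CXCR4 level, that level and the identity of the clone cannot be told apart, and a relation to it was not tested.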

How the results depend on the processing

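The limits are those of 4 lines: each knockdown line is 1 clone, arrays within a line may not be separate cultures, and low levels are compressed. Genes passing numbered 5622 and became 9213 over all probe sets, 3490 with 2 sides and no line term, 1422 with the line as a random block, 26 with 1 mean per line and 3248 at an adjusted p under 0.01. Of these fits, those with the line as a random block or as 1 mean use fewer independent units. Genes passing at 2-fold numbered 100 and became 162 over all probe sets, 61 after averaging the probe sets of each gene, 46 at a mean log2 of at least 6, 65 in the upper 50% by level and 19 with 1 mean per line. Genes with no overlap numbered 1884 and became 3200 over all probe sets, 4816 with only Mock, 4029 with only Parental, 4204 with only shCXCR4 (I) and 3342 with only shCXCR4 (II), where fewer arrays are compared, and 269 and 79 at distances of at least 0.25 and 0.5. Leaving out 1 array at a time gave 4585 to 6363 genes passing, 97 to 104 at 2-fold and 1996 to 2453 with no overlap. With the replicate block, 5519 genes passed and 100 passed at 2-fold. Quantile normalization kept 1329 (70.5%) of the separating genes. Without probe sets that may read several transcripts, 4 named genes turned direction, to 0.0427 (ANXA6), 0.1433 (COL6A1), 0.0364 (RBPJ) and 0.0709 (LRATD1); the change of probe set is the change made. Over 112 named genes and 30 settings, 3275 values were compared, and 3114 kept direction and call, 150 lost the call, 7 gained it and 4 turned. All settings read the arrays on which the genes were chosen. Of the 150 lost calls, 101 came with 1 mean per line, where 11 of the 112 genes kept direction and call. Only 10 genes kept both in every setting.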
